A study of Homo sapiens with 8 samples.

Results

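The genes described here encode the nuclear pore complex, the transport receptors that pass through it and the RNA export machinery. They were taken as all probes whose gene name on the array began with NUP, NUPL, XPO, THOC, NXF, NXT, POM121, KPNA or KPNB followed by the family's number or letter. The rule used names only and gave 59 of 36337 gene names on the array, with 89 of 50599 distinct non-control probes. They were measured in HCT-116 cells, an established human colorectal cancer line, with a single-colour Agilent SurePrint G3 expression array per sample. The 8 arrays fell into 4 groups of 2: the untreated parental line (WT), WT cells given 20 µM NU6102 for 24 h (WT+NU6102), untreated cells with a knockout of the CDK2 gene (CDK2 KO), and cells maintained in 50 µM NU6102 (R50). NU6102 is a purine inhibitor of the cyclin-dependent kinases CDK1 and CDK2, which drive DNA replication and mitosis. R50 cells carried the drug and a history of selection together, at a dose and for a time that differ from the acute treatment, and the arrays held no R50 cells off the drug. Whether the CDK2 KO line was a single clone was not given in the sources used here.

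The nuclear pore complex is a cylinder of stacked protein rings set in the nuclear envelope. Scaffold nucleoporins (the Y complex and the inner ring) hold its shape, flexible FG-repeat nucleoporins fill the channel, and filaments reach out on the cytoplasmic face and form a basket on the nuclear face. Importins (karyopherin α and β) carry proteins in, exportins carry proteins and several kinds of RNA out, and messenger RNA leaves on the receptor pair NXF1-NXT1, which is loaded by the TREX complex with its THO core. Scaffold pores are taken apart in mitosis and built again afterwards, and new pores are added while cells grow towards division.

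The RNA of each array was a separate biological replicate by the series' own description, so the spread between 2 arrays carries culture and technical variation together. CDK2 KO and R50 arrays lay on 1 slide, and WT and WT+NU6102 arrays on another. The acute treatment was therefore compared with WT within a slide, as was R50 with CDK2 KO. For the remaining comparisons the effects of slide and of group cannot be told apart. On each array 32376 to 36206 of the 58717 non-control spots stood well above background. Replicate arrays correlated at 0.994 to 0.996 over probes. The CDK2 probe read -0.78 and -0.77 in WT, -1.58 and -1.53 in CDK2 KO, -1.11 and -1.1 in R50 and -0.46 and -0.43 in WT+NU6102. It was lower in CDK2 KO than in WT by 0.78 on the log2 scale (adjusted p = 0.000271, limma), yet stayed well above background, and whether it lies within the deleted part of the gene was not given. Of the markers of the labelled cell type, all 5 epithelial genes were well above background on all 8 arrays, while of 5 fibroblast markers COL1A1 was so on every array and COL1A2, COL3A1 and LUM on none. Of the leukocyte markers, CD14 and PTPRC passed that threshold on every array and CD3E on 4. All values below are log2 of the scanner's processed signal less the 75th percentile of the same array, called the normalised signal. Such values compare the same probe between groups and never one gene's level with another's.

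Of the 89 probes, 74 for 51 genes stood well above background in 1 or more groups, in each case on both of the group's arrays, and were tested. Of these 74, 71 did so on all 8 arrays. Of the 15 untested probes, 12 were well above background on no array. They were a probe of NUP35, a probe of NXF5, 1 each of NXF2, NUP210L, NUP210P1, KPNA7, POM121L1P and POM121L2, and both probes of POM121L4P and of POM121L8P. NXF2 is a testis-enriched relative of the mRNA export receptor, KPNA7 an importin α of eggs and early embryos, and NUP210L a testis relative of the pore membrane protein NUP210. The other untested probes, of POM121L9P, KPNA7 and POM121L10P, were above background on 1 or 2 arrays.

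Sequences of the probes on which the results turn are given here, since several genes changed at one probe and not at another. For NXF1, NUP50 and KPNA5 the whole 60-base probe is printed, and for the others 30 bases. Positions are those of the array's own annotation, build hg19, and no exon annotation of that build was used. No member probe shared a run of 20 bases with a probe of another gene name.
NXF1 (chr11:62561878-62562431, minus strand, a span longer than the probe): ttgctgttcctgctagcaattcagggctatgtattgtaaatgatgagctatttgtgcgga
NUP50 (chr22:45580381-45580440, plus strand): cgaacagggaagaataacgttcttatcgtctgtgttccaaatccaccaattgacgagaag
KPNA5 (chr6:117050727-117050786, plus strand): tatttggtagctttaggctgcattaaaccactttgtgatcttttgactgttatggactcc
NXF3 (chrX:102330794-102330853, minus strand): tcatccttccaaaggggccagttgttctgt
NUP107 (chr12:69136376-69136435, plus strand, last 30 bases, the polyadenylation-type hexamer AATAAA in capitals): agcgtttctctgtgtgcttgttAATAAAac
NUP98, described in the file as transcript variant 1 (chr11:3696747-3696806, minus strand): ggagggattgatcttcagggctgtttttgt
NUP98, described as transcript variant 3 (chr11:3733190-3733249, minus strand): tggggagattagggcctacattgtttatcg
POM121, upstream probe (chr7:72417943-72418002, plus strand): acctaaattaatgaaccatatttttaaaat
POM121, downstream probe (chr7:72421126-72421185, plus strand): tgagagctgagctcattcttgatggatgag
KPNA4, inner probe (chr3:160218043-160218102, minus strand): gtatttttgcagcattccttgtcatcagaa
KPNA4, end probe (chr3:160213076-160213135, minus strand): ggaaatgtttgtttgcatcctggctttctc

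In WT cells given NU6102 for 24 h, more transport genes rose than fell. A limma fit over all 28677 tested probes called 39 of the 74 member probes at an adjusted p under 0.05, 33 of them higher and 6 lower. Over all probes 44.7% were called, 23.6% higher and 21.1% lower, against 44.6% and 8.11% of the member probes. The median log2 change of the 51 member genes, each taken at its brightest probe, was 0.22, and that of all 19509 tested genes was 0.04. With quantile normalization the member median was 0.08, and the calls were 25 higher and 10 lower. The same 25 and 10 calls, with a median of 0.15, were obtained when the percentile was taken over the tested probes alone. The changes were small: 2 member probes, both lower, changed by at least 1 on the log2 scale, where 6.49% of all probes did.

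In CDK2 KO cells the member probes split much as the array did. There were 22 calls, 14 higher and 8 lower, which is 29.7% of the members against 31.1% of all probes, 15.8% higher and 15.3% lower. The member median was 0.02, as was that of all genes. A single member probe, of KPNA5, passed a log2 change of 1, where 4.74% of all probes did. Leaving out either WT array left 12 calls, and leaving out either CDK2 KO array left 10. Without the filter on dim probes 7 were called.

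In R50 cells the calls against WT ran mostly downwards. There were 23 of them, 2 higher and 21 lower, or 31.1% of the members against 22.6% of all probes, 9.78% higher and 12.8% lower. The median of the member genes was -0.16 and that of all genes -0.03. NXF3 was the single member past a log2 change of 1, where 2.59% of all probes were. The member median ranged from -0.2072 to -0.1445 when 1 array was left out. It could not move from -0.1567 when that array was of CDK2 KO or WT+NU6102, since those arrays do not enter it. Fewer member probes were called in every such fit, also where the array lay outside the comparison. The reason for the lost calls was not tested. Without the filter on dim probes 2 were called, while a trended prior variance gave 35.

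Against CDK2 KO cells, on the same slide, R50 cells had 4 member probes higher and 32 lower, in all 48.6% against 34.4% of all probes, of which 15.2% were higher and 19.3% lower. The median member gene differed by -0.23, and the median gene by -0.06. Of the members 2 probes differed by at least 1 on the log2 scale, NXF3 and NUP107, against 5.2% of all probes. Fitted on that slide's 4 arrays alone, 2 were higher and 18 lower. Without either CDK2 KO array there were 18 calls, without R50 replicate 1 there were 23, and without the filter on dim probes 17. Against WT+NU6102 cells, R50 cells had 6 probes higher and 40 lower, 62.2% in all against 51.4% of all probes, of which 22.9% were higher and 28.5% lower. At least 1 on the log2 scale separated 4 member probes, of NXF1, NXF3, NUP50 and POM121, against 10.9% of all probes. The median member gene differed by -0.40 there, and the median gene by -0.05. The comparisons share arrays with each other, WT in 3 of them and R50 in 3, so they are not separate evidence on any gene.

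**Figure D1:**
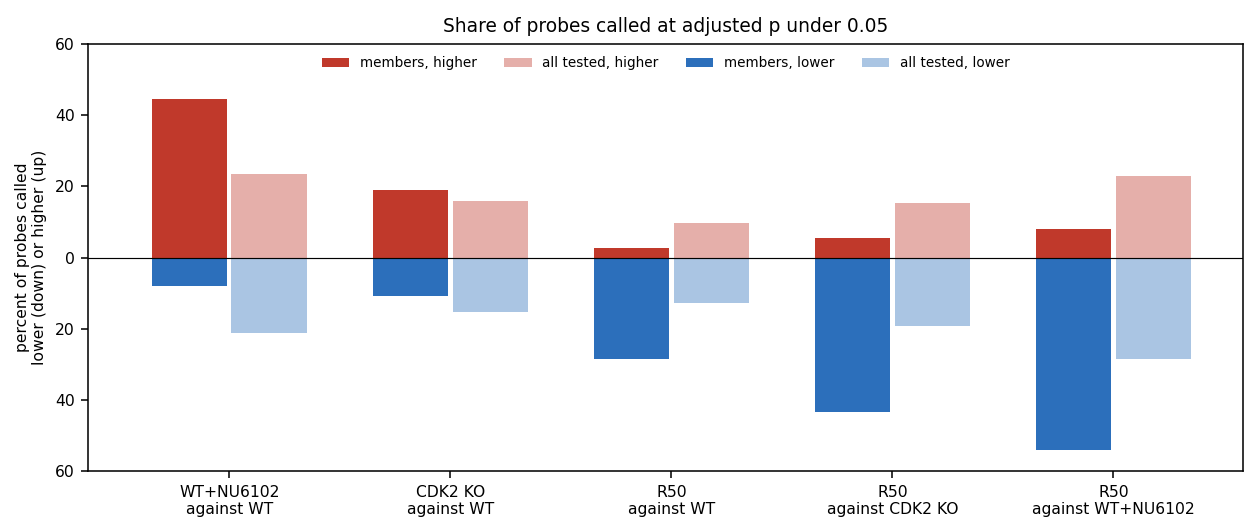
Percent of probes called higher (upward bars) or lower (downward bars) at an adjusted p under 0.05 in 5 comparisons, for the 74 tested member probes (dark) and all 28677 tested probes (pale). Members exceed the array on the higher side with NU6102 (44.6% against 23.6%) and on the lower side in R50 against WT (28.4% against 12.8%).

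Of all probes, 21.1% passed a moderated F-test across the 4 groups at an adjusted p under 0.001. Of the 74 tested member probes 21 did. They came to 5 or fewer when any array was left out. No share of all probes is given for those fits, so the drop is not particular to the members. In bulk RNA from a dish, fewer cells in a phase that expresses a gene and less of its RNA per cell cannot be told apart. A list of 12 proliferation genes, all well above background on all arrays, was counted beside the members. In R50 against WT 9 were called lower and none higher, where 13.4% of all tested genes were lower. Their median was -0.24, with a range from -0.33 to -0.05. In WT+NU6102 4 of these rose, CDK1 by 0.80, and 3 fell, with a median of 0.11 and a range from -0.41 to 0.80. That was 33.3% higher and 25% lower, against 25% and 22% of all tested genes. In CDK2 KO 2 of the list were higher and 2 lower, where 17.1% and 15.4% of all tested genes were. Their part in the changes of the transport genes was not tested.

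The Y complex is the outer ring scaffold on both faces of the pore. Genes are counted by role at their brightest probe. All 6 tested members were measured higher after NU6102, by 0.14 to 0.56, and NUP107, NUP160, NUP43 and NUP85 passed the test, as did 25% of all tested genes in that direction. The second NUP43 probe gave 0.26 (adjusted p = 0.0699). NUP107, the scaffold's organizing subunit, read 3.25 and 3.40 in WT, 3.81 and 3.74 in WT+NU6102, 4.29 and 4.24 in CDK2 KO, and 3.12 and 3.09 in R50. The knockout arrays were the highest, the treated WT arrays came next, and no groups overlapped. NUP107 was 1.91-fold higher in CDK2 KO than in WT (log2 change 0.94 ± 0.07 SE, adjusted p = 0.000564), 1.36-fold higher with NU6102 (adjusted p = 0.0037) and 2.23-fold lower in R50 than in CDK2 KO (log2 change -1.16, adjusted p = 0.000257). Against WT the R50 value was -0.22 (adjusted p = 0.0719).

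NUP133 and NUP160, also of the Y complex, rose in CDK2 KO by less. NUP133, whose protein anchors the ring to curved membrane, changed by 0.31 at its brighter probe (adjusted p = 0.0107) and by 0.08 at the other (adjusted p = 0.599). NUP160 changed by 0.19 (adjusted p = 0.0359). NUP160 was also higher with NU6102, where the arrays read 2.66 and 2.61 against 2.05 and 2.11 in WT (log2 change 0.56, adjusted p = 0.00064). In R50 the single Y complex gene called against WT was NUP37, a peripheral subunit of animal pores. It read 2.53 and 2.63 in R50 and 2.98 and 2.92 in WT, a fall of 0.37 on the log2 scale (adjusted p = 0.0108). Against CDK2 KO, 5 of the 6 were called lower in R50, where 20.6% of all tested genes were. The exception was NUP43 at -0.03 (adjusted p = 0.623).

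The inner ring is the core scaffold around the channel. NUP155, which links it to the membrane, read 1.57 and 1.67 in WT, 2.45 and 2.52 in WT+NU6102, 1.60 and 1.62 in CDK2 KO, and 1.45 and 1.55 in R50. The treated WT arrays stood apart, above all the others. The rise with NU6102 was 1.82-fold (adjusted p = 0.000376). NUP188, a large scaffold subunit, rose by 0.65 (adjusted p = 0.000356) and NUP93, which joins scaffold to channel, by 0.34 (adjusted p = 0.00344). NUP205, the relative of NUP188, changed by 0.12 (adjusted p = 0.103). NUP35 moved the other way, by -0.23 (adjusted p = 0.0435) at its brighter probe and -0.11 (adjusted p = 0.288) at the other, and its call was kept in 1 of 8 fits that left out an array. With quantile normalization the brighter probe gave -0.38.

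In CDK2 KO the inner ring changed little, with NUP188 called at 0.22 (adjusted p = 0.0179). In R50 against WT, NUP93 was lower by 0.29 (adjusted p = 0.0156) and NUP205 by 0.22 (adjusted p = 0.0324). Against CDK2 KO, 4 of the 5 inner ring genes were called lower in R50, where 20.6% of all tested genes were. Their values ran from -0.20 for NUP93 to -0.34 for NUP188, and NUP155 at -0.11 was not called.

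The central channel holds the FG-repeat proteins through which cargo passes. NUPL1 (current name NUP58) read 0.69 and 0.91 in WT, 1.62 and 1.57 in WT+NU6102, 0.82 and 0.78 in CDK2 KO, and 0.64 and 0.67 in R50 at its brightest probe. The treated WT arrays were again apart, 1.73-fold above WT (adjusted p = 0.000948). Its second probe changed by 0.14 (adjusted p = 0.193), and the gap of 0.65 between these probes was itself called (adjusted p = 0.0134). In CDK2 KO the second probe was lower by 0.43 (adjusted p = 0.00977) and the first was not called (adjusted p = 0.983). NUP54, its partner in the channel, rose by 0.53 (adjusted p = 0.00214). NUP62, the third partner, changed by 0.06 at its brighter probe (adjusted p = 0.488) and rose by 0.46 at the other (adjusted p = 0.0024), a called difference of 0.41 (adjusted p = 0.0314). In R50 against WT, NUP54 was lower by 0.30 (adjusted p = 0.0307).

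On the cytoplasmic face, where mRNA is released, NUP214, NUP88 and NUPL2 all rose with NU6102, by 0.26, 0.47 and 0.27. Of all tested genes 25% were called higher there. NUPL2 (current name NUP42) binds the export helicase machinery there. It was also the second largest called rise of a member gene in CDK2 KO. It read 1.29 and 1.42 in WT, 1.64 and 1.61 in WT+NU6102, 1.87 and 1.93 in CDK2 KO, and 1.60 and 1.55 in R50. All arrays of the other 3 groups lay above WT, and the knockout lay highest. Its change in CDK2 KO was 1.46-fold (log2 0.54, adjusted p = 0.00242), and its other probe gave 0.53 (adjusted p = 0.00566). In R50 against WT neither probe was called, at 0.22 (adjusted p = 0.0583) and 0.22 (adjusted p = 0.101). NUP214 and NUP88 changed by 0.02 and 0.01 in CDK2 KO (adjusted p = 0.818 and 0.86).

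Both nuclear basket genes rose with NU6102, and both were lower in R50 than in WT+NU6102. Of all tested genes 25% were called higher in the first comparison and 29.4% lower in the second. NUP50, a basket protein that helps release imported cargo, read 0.66 and 0.51 in WT, 1.55 and 1.54 in WT+NU6102, 0.59 and 0.58 in CDK2 KO, and 0.28 and 0.41 in R50 at the probe printed above. WT+NU6102 was 1.94-fold above WT (log2 change 0.96, adjusted p = 0.000392), and R50 was 2.30-fold below WT+NU6102 (log2 change -1.20, adjusted p = 0.000107). The second NUP50 probe gave 0.59 (adjusted p = 0.00257) and -0.88 (adjusted p = 0.000403) in the same comparisons. NUP153, which anchors the basket, read 2.37 and 2.36 in WT, 2.57 and 2.60 in WT+NU6102, 2.47 and 2.45 in CDK2 KO, and 1.94 and 2.02 in R50. It was lower in R50 than in WT by 0.38 on the log2 scale (adjusted p = 0.00632) in all 8 fits that left out an array, and lower than in CDK2 KO by 0.48 (adjusted p = 0.00146).

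Of the membrane nucleoporins, NUP210 was called higher in CDK2 KO by 0.24 (adjusted p = 0.0241), and changed by -0.08 with NU6102 (adjusted p = 0.273) and 0.19 in R50 (adjusted p = 0.065). POM121 is described with the probe pairs below. Of its relatives, POM121L10P, POM121L12 and POM121L1P had tested probes and none was called in any comparison. NUP62CL, a gene on the X chromosome related to NUP62, read -0.97 and -0.99 in WT, -1.99 and -2.08 in WT+NU6102, -0.66 and -0.68 in CDK2 KO, and -1.23 and -1.30 in R50. All 4 groups were apart: NU6102 lowered it 2.08-fold (log2 change -1.05 ± 0.05 SE, adjusted p = 0.000167), CDK2 KO cells had 1.24-fold more than WT (adjusted p = 0.00941), and R50 cells had 1.22-fold less (adjusted p = 0.0185). It was the member gene with the largest fall under NU6102.

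**Figure D2:**
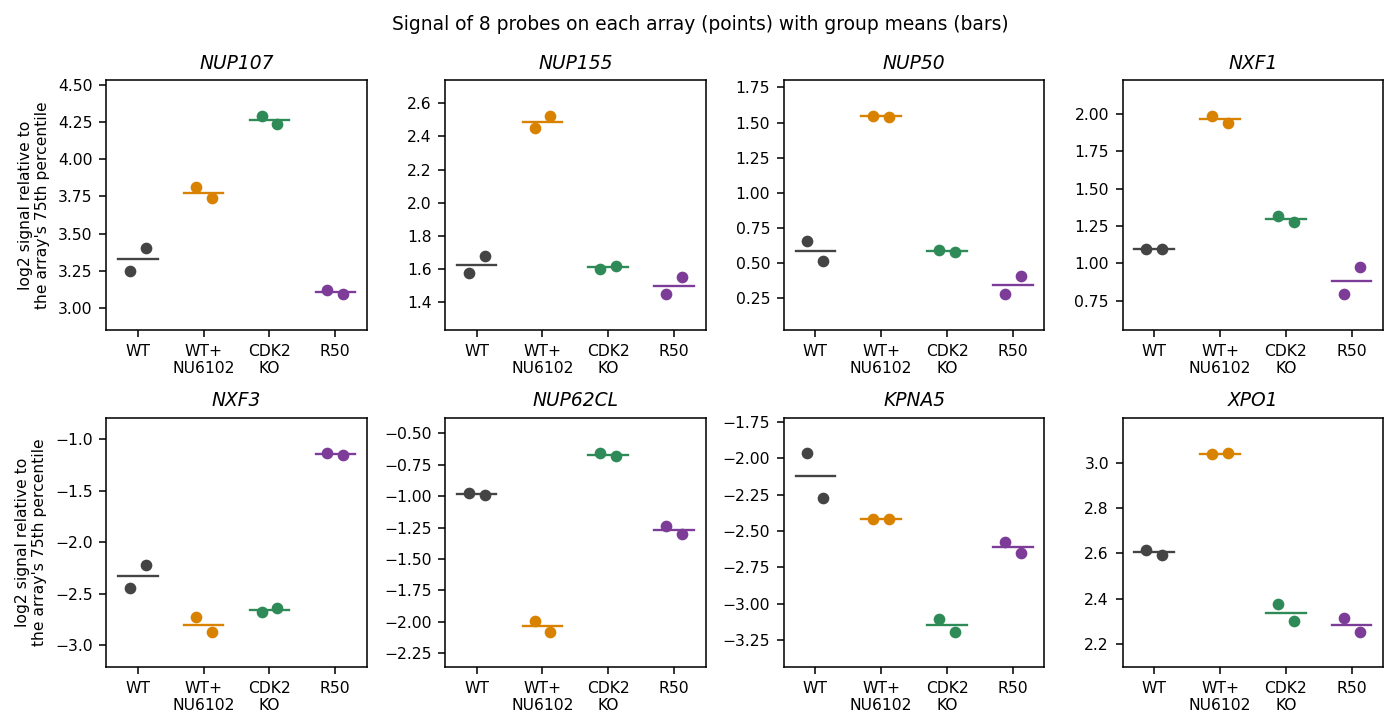
Normalised signal (log2, relative to the 75th percentile of the array) of 8 probes on each of the 8 arrays, with points for arrays and bars for the means of 2 arrays. Axes differ between panels and do not start at 0. NUP155, NUP50, NXF1 and XPO1 are highest in WT+NU6102, NUP107 in CDK2 KO and NXF3 in R50.

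Among the importins, the carriers of proteins with a nuclear localization signal, 3 of 7 rose with NU6102, against 25% of all tested genes. KPNA2, the importin α of dividing cells, rose by 0.54 (adjusted p = 0.000726), KPNB1, the importin β that pairs with it, by 0.38 (adjusted p = 0.00688), and KPNA4 by 0.32 (adjusted p = 0.00586) at its brightest probe. The other KPNA4 probes gave 0.08 (adjusted p = 0.228) and 0.002 (adjusted p = 0.98), and the second of these differed from the brightest by -0.32 (adjusted p = 0.0346). KPNA1, KPNA3, KPNA5 and KPNA6 had values from -0.33 to -0.11 and were not called. In CDK2 KO, KPNB1 was lower by 0.29 (adjusted p = 0.0261), a call kept in 4 of 8 fits that left out an array. The other KPNB1 probe gave -0.004 there (adjusted p = 0.964) and 0.23 with NU6102 (adjusted p = 0.0133). In R50, KPNA2, KPNA3 and KPNA4 were lower than in WT, by 0.20, 0.30 and 0.26, where 13.4% of all tested genes were called lower.

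KPNA5 had the largest fall of any member probe in CDK2 KO. At the probe printed above it read -1.97 and -2.28 in WT, -2.42 and -2.42 in WT+NU6102, -3.11 and -3.19 in CDK2 KO, and -2.58 and -2.65 in R50. The WT arrays were farther apart than those of any other group but still highest, and the knockout arrays were lowest. The CDK2 KO value was 2.04-fold below WT (log2 change -1.03 ± 0.11 SE, adjusted p = 0.00178), and with normexp background correction the log2 change was -0.60. Its brighter probe, 5.84 kb further along the gene, gave -0.45 (adjusted p = 0.0558), and the difference between these probes was not called (-0.57 ± 0.17 SE, adjusted p = 0.0881). In R50 the printed probe was also lower than in WT, by 0.49 (adjusted p = 0.0278), and higher than in CDK2 KO by 0.54 (adjusted p = 0.0139). The brighter probe was called in neither, at -0.28 (adjusted p = 0.201) and 0.17 (adjusted p = 0.387).

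Of the 6 exportins tested, 5 rose with NU6102, where 25% of all tested genes did, and 4 were lower in R50 than in WT, where 13.4% of all genes were. XPO1 (CRM1), which exports proteins with a leucine-rich signal, read 2.62 and 2.60 in WT, 3.04 and 3.04 in WT+NU6102, 2.38 and 2.30 in CDK2 KO, and 2.32 and 2.26 in R50. It rose by 0.43 with NU6102 (adjusted p = 0.00149), and was lower by 0.27 in CDK2 KO (adjusted p = 0.0134) and by 0.32 in R50 (adjusted p = 0.0115). XPOT, the tRNA exporter, was also highest with NU6102 and below WT in the other groups, with changes of 0.29, -0.27 and -0.21 (adjusted p = 0.00434, 0.00884 and 0.0257). R50 and CDK2 KO were not called different for XPO1 (-0.05, adjusted p = 0.462) or XPOT (0.05, adjusted p = 0.401).

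XPO5, the exporter of pre-miRNAs, rose with NU6102 at all 3 probes, by 0.41, 0.77 and 0.61. In CDK2 KO its probes gave -0.09 (adjusted p = 0.235), 0.35 (adjusted p = 0.00737) and 0.26 (adjusted p = 0.0537), and in R50 -0.36 (adjusted p = 0.00903), 0.02 (adjusted p = 0.832) and -0.23 (adjusted p = 0.0871). The first and second of these probes differed in all 3 comparisons with WT (adjusted p = 0.0173, 0.0112 and 0.0397). XPO6, the actin exporter, read 2.03 and 2.00 in WT, 2.21 and 2.23 in CDK2 KO and 1.61 and 1.75 in R50. It was lower in R50 by 0.33 than in WT (adjusted p = 0.0172) and by 0.54 than in CDK2 KO (adjusted p = 0.00201). XPO4 rose by 0.54 with NU6102 (adjusted p = 0.0246), while XPO7 gave -0.03 (adjusted p = 0.69). In CDK2 KO, XPO7 was higher by 0.21 (adjusted p = 0.0295).

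The mRNA export receptors NXF1 and NXF3 moved in opposite directions with NU6102. NXF1, the general mRNA export receptor, read 1.1 and 1.1 in WT, 1.99 and 1.94 in WT+NU6102, 1.32 and 1.28 in CDK2 KO, and 0.79 and 0.97 in R50. The treated arrays were highest and the R50 arrays lowest. NXF1 was 1.82-fold above WT with NU6102 (log2 change 0.87 ± 0.07 SE, adjusted p = 0.00048) and 2.12-fold lower in R50 than in WT+NU6102 (adjusted p = 0.000136). Against WT the R50 value was -0.22 (adjusted p = 0.0825). NXF5 and NXT2 were not called at their brightest probes in any comparison, while the dimmer NXT2 probe was lower by 0.52 with NU6102 (adjusted p = 0.0146).

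NXF3 is an X-linked, testis-enriched relative of NXF1. It read -2.44 and -2.22 in WT, -2.73 and -2.87 in WT+NU6102, -2.68 and -2.64 in CDK2 KO, and -1.14 and -1.16 in R50. The probe stood well above background throughout. The R50 arrays lay more than 1 log2 unit above all others. The rise was 2.27-fold over WT (log2 change 1.18 ± 0.09 SE, adjusted p = 0.00127), 2.85-fold over CDK2 KO (adjusted p = 0.000257) and 3.14-fold over WT+NU6102 (adjusted p = 8.19e-05). It was called in all 8 fits that left out an array. NXF3 was lower with NU6102 by 0.47 on the log2 scale (adjusted p = 0.00844), and lower in CDK2 KO by 0.33 (adjusted p = 0.0406), the latter call kept in 1 of those 8 fits. With normexp background correction these values were -0.27 and -0.21. NXT1, the small partner of NXF1, was lower in R50 by 0.29 than in WT (adjusted p = 0.0265) and by 0.51 than in CDK2 KO (adjusted p = 0.00267).

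The THO core and the TREX adaptor THOC4 couple transcription to export. With NU6102, THOC4 (current name ALYREF) rose by 0.22 (adjusted p = 0.0333) and THOC7 by 0.22 (adjusted p = 0.0173). The other 5 tested genes had values from -0.07 to 0.09. The 2 rises were 28.6% of the 7 genes, near the 25% of all tested genes called higher. In CDK2 KO 2 of the 7 were called higher and 2 lower, where 17.1% and 15.4% of all tested genes were. THOC2, the scaffold of THO, was higher by 0.31 (adjusted p = 0.0105) and THOC3 by 0.22 (adjusted p = 0.0281). THOC6 was lower by 0.36 (adjusted p = 0.0169) and THOC7 by 0.21 (adjusted p = 0.0323). The second probes of THOC2 and THOC3 were not called there, at -0.01 (adjusted p = 0.898) and 0.11 (adjusted p = 0.149). THOC4, which hands mRNA to NXF1, read 5.35 and 5.31 in WT, 5.56 and 5.53 in WT+NU6102, 5.32 and 5.19 in CDK2 KO, and 4.98 and 4.91 in R50. The R50 arrays were lowest, 1.30-fold below WT (adjusted p = 0.012), a call kept in 5 of 8 fits that left out an array.

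**Figure D3:**
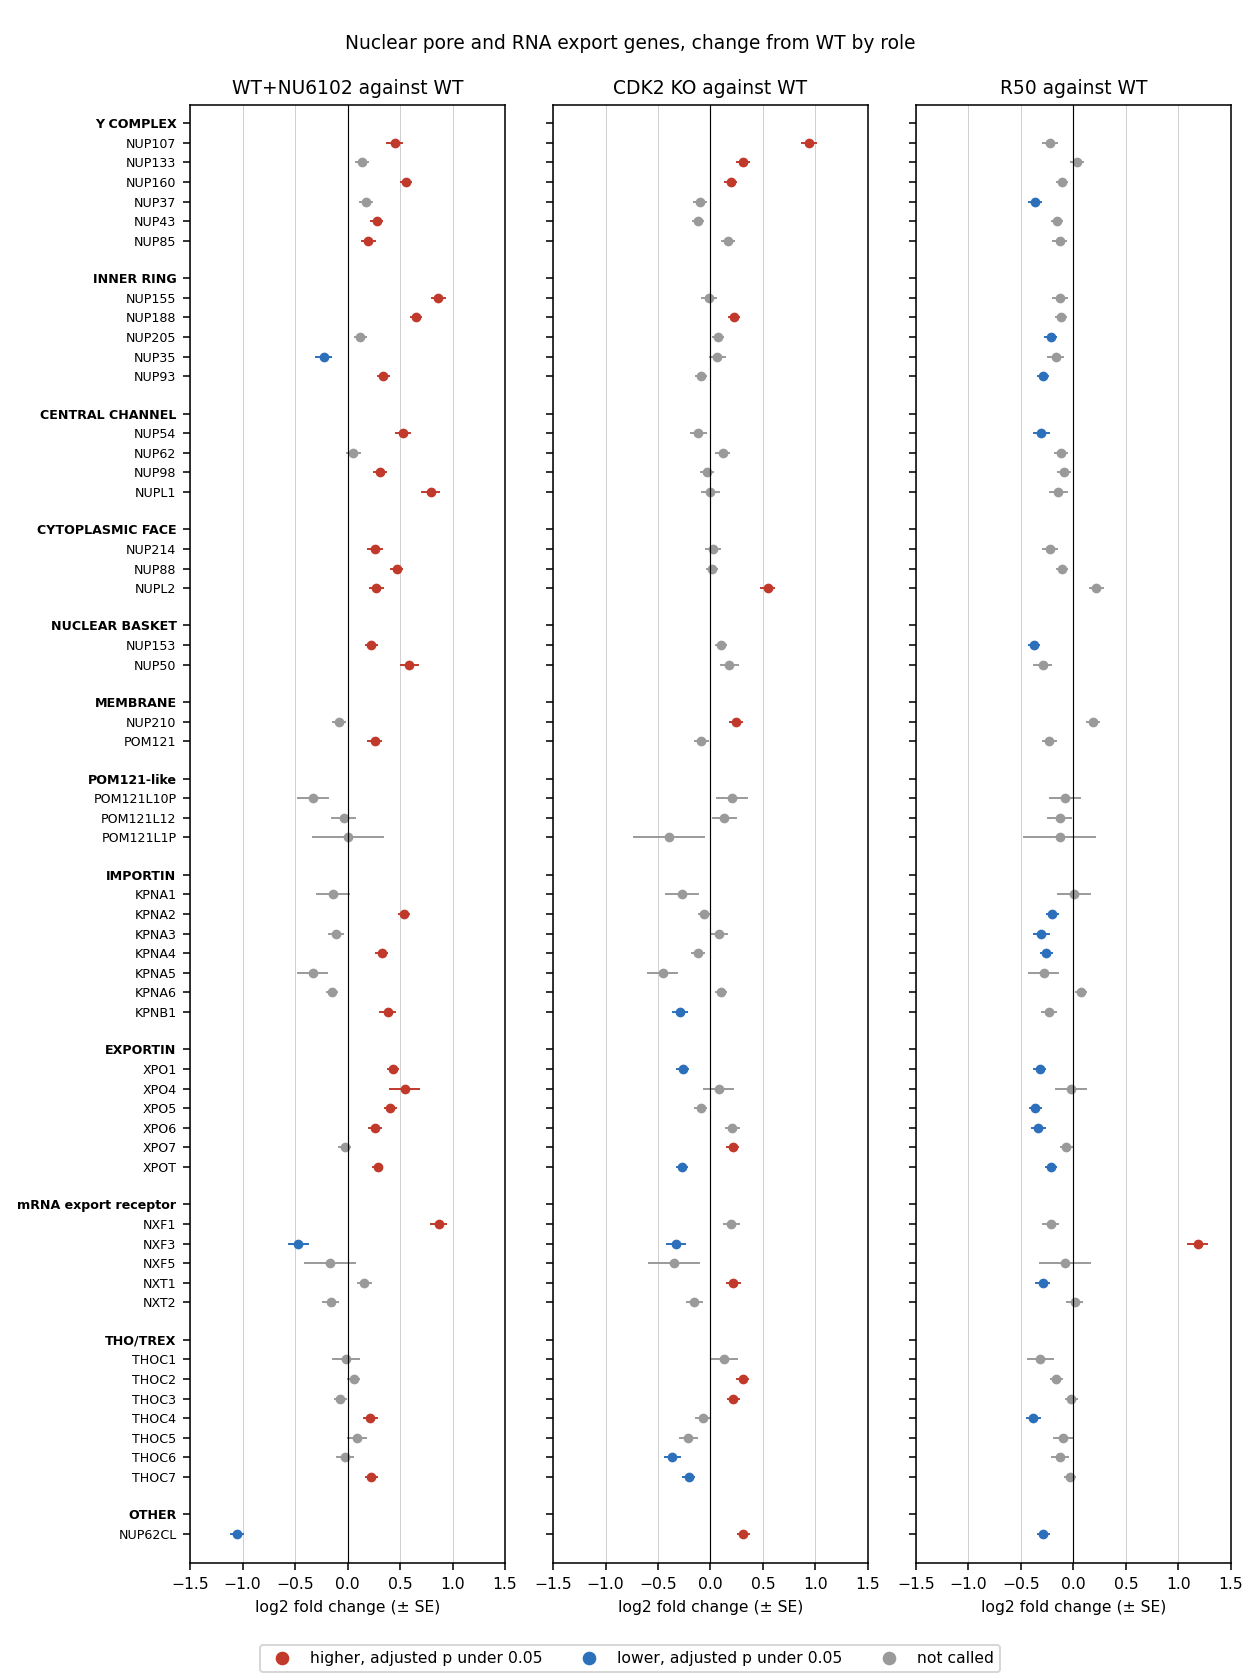
Log2 fold change from WT (horizontal axis, with 1 standard error on each side) of the 51 tested member genes at their brightest probe, grouped by role, in WT+NU6102, CDK2 KO and R50. Red and blue points were called higher and lower at an adjusted p under 0.05 over all probes. With NU6102 27 genes are red and 3 blue, in CDK2 KO 11 and 6, and in R50 1 (NXF3) and 15. In that order the member shares were 52.9% and 5.88%, 21.6% and 11.8%, and 1.96% and 29.4%. Those of all tested genes were 25% and 22%, 17.1% and 15.4%, and 10.9% and 13.4%.

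For 20 genes 2 or more probes were tested, giving 26 pairs of probes. Whether the 2 probes of a pair changed by different amounts was fitted over all 8068 such pairs on the array. With NU6102 6 member pairs differed, where 20.2% of all pairs did, in CDK2 KO 2 (14.4% of all pairs), in R50 against WT 3 (4.61%), in R50 against CDK2 KO 3 (12.2%) and in R50 against WT+NU6102 7 (25.5%). In the NU6102 comparison the difference passed 1 on the log2 scale for NUP98 and POM121.

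NUP98 messages encode an FG nucleoporin, in longer forms joined to the scaffold protein NUP96 that is cut off after translation. The variant 1 probe, the brighter one, read 1.99 and 1.98 in WT, 2.33 and 2.26 in WT+NU6102, 1.96 and 1.95 in CDK2 KO, and 1.85 and 1.95 in R50. The variant 3 probe, 36.4 kb away in the genome, read 0.46 and 0.37 in WT, -0.42 and -0.52 in WT+NU6102, 0.962 and 1.005 in CDK2 KO, and 0.07 and 0.15 in R50. One probe was highest in the treated cells, and the other was lowest there and highest in the knockout.

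With NU6102 the variant 1 probe rose by 0.31 (adjusted p = 0.00814) while the variant 3 probe fell by 0.88 (adjusted p = 0.000356). The difference between them was 1.19 ± 0.07 SE (adjusted p = 0.000602). In CDK2 KO the variant 3 probe was higher by 0.57 (adjusted p = 0.0023) and the variant 1 probe changed by -0.03 (adjusted p = 0.724), a difference of -0.60 (adjusted p = 0.00437). Between R50 and CDK2 KO, on the same slide, the variant 3 probe differed by -0.88 (adjusted p = 0.000495) and the pair by 0.82 (adjusted p = 0.00227). In R50 against WT the variant 3 probe was lower by 0.31 (adjusted p = 0.0248), and the pair was not called (0.22 ± 0.07 SE, adjusted p = 0.138).

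POM121 is a membrane protein that starts new pores in the nuclear envelope, and it has a near-identical copy, POM121C, whose RNA the upstream probe may also bind, since the accession field of that probe lists a transcript of each. The upstream probe read 1.43 and 1.37 in WT, 1.72 and 1.60 in WT+NU6102, 1.35 and 1.28 in CDK2 KO, and 1.13 and 1.21 in R50. The downstream probe, 3.12 kb further along, read -1.92 and -1.98 in WT, -3.35 and -3.20 in WT+NU6102, -1.996 and -1.92 in CDK2 KO, and -1.88 and -1.90 in R50. The downstream signal dropped in the treated cells alone, 2.50-fold (log2 change -1.32 ± 0.07 SE, adjusted p = 0.000167), against a rise of 0.26 upstream (adjusted p = 0.0228). With normexp background correction the downstream log2 change was -0.75. The pair differed by -1.58 ± 0.11 SE (adjusted p = 0.000915) with NU6102, and by 0.08 in CDK2 KO (adjusted p = 0.705) and 0.29 in R50 (adjusted p = 0.208). The upstream call was kept in 5 of 8 fits that left out an array, and was lost with quantile normalization and with the percentile over the tested probes. The downstream call was kept in all 8.

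KPNA4, an importin α, had 3 probes, of which 2 abut each other in the genome and the inner one lies 4.91 kb away. In R50 the inner probe was lower than in WT by 0.26 (adjusted p = 0.0275), while the end probes gave 0.23 (adjusted p = 0.0291) and 0.13 (adjusted p = 0.15). The inner probe read 2.45 and 2.47 in R50 and 2.71 and 2.72 in WT, and the first end probe 0.30 and 0.35 in R50 and 0.12 and 0.07 in WT. The end probes differed from the inner one by 0.49 (adjusted p = 0.0259) and 0.39 (adjusted p = 0.0493), and from each other by 0.09 (adjusted p = 0.546). Taken singly, the R50 calls of the inner and the first end probe were kept in 2 and 0 of 8 fits that left out an array.

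**Figure D4:**
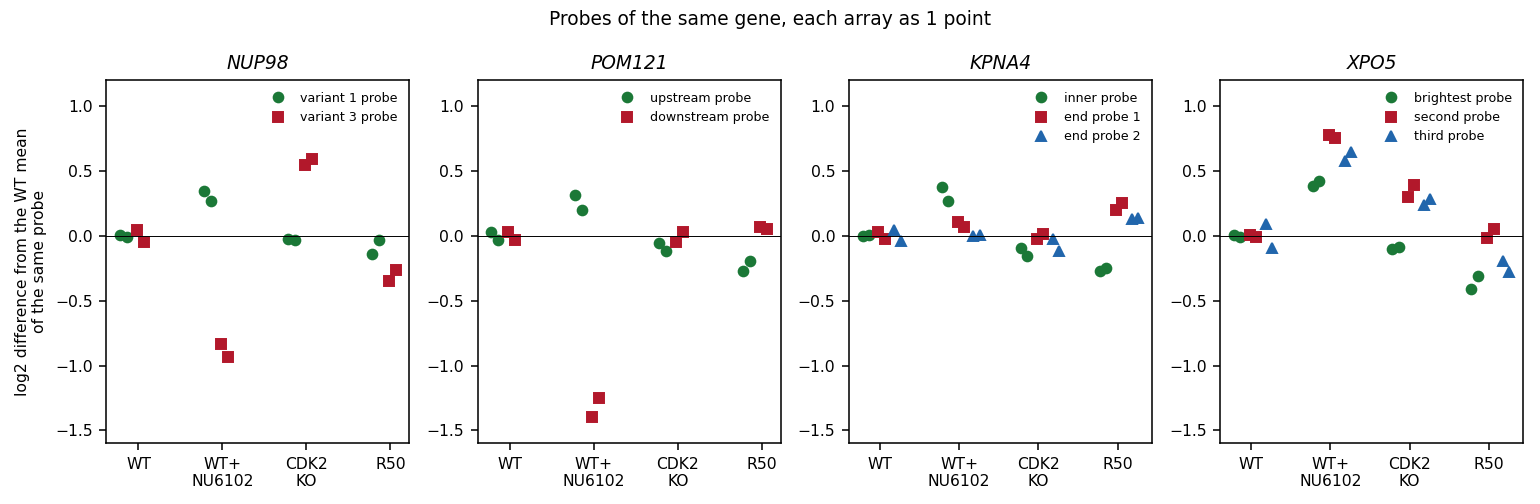
Difference of each array from the WT mean of the same probe (log2, vertical axis) for the probes of NUP98, POM121, KPNA4 and XPO5, with 1 point per array and probes marked by shape and colour. In WT+NU6102 the NUP98 variant 3 probe and the downstream POM121 probe lie near -0.88 and -1.32 while the other probe of each gene lies above 0.

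Of the 57 further genes of nuclear transport and RNA export listed beside the members, 52 were tested. They were pore partners, the Ran cycle that powers transport, other importins and transportins, and mRNA export adaptors. Each was read at its brightest tested probe, and any other probes of these genes were not compared. With NU6102, 30 were called higher (57.7%, against 25% of all tested genes) and 6 lower, where 22% of all genes were lower, and their median change was 0.25, where that of all genes was 0.04. With quantile normalization 24 were called higher and 8 lower. The exon junction proteins MAGOH and RBM8A, which form a dimer deposited on spliced mRNA, rose by 0.89 (adjusted p = 0.000386) and 0.84 (adjusted p = 0.00022), and IPO13, the importin that carries this dimer back to the nucleus, rose by 0.77 (adjusted p = 0.000363). IPO9, an importin of histones and ribosomal proteins, was lower by 1.04 on the log2 scale (adjusted p = 0.000427), the splicing factor SRSF7 by 0.73 (adjusted p = 0.000338) and SNUPN, the importer of spliceosomal snRNPs, by 0.50 (adjusted p = 0.00117).

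In CDK2 KO 6 of these 52 genes were higher and 9 lower, in all 28.8% against 32.5% of all tested genes, a share near that of the array. IPO9 was higher by 0.97 (adjusted p = 0.000849), the export adaptor POLDIP3 by 0.56 (adjusted p = 0.00194) and the cap-binding protein NCBP1 by 0.44 (adjusted p = 0.00966). The pore proteins AAAS (-0.51, adjusted p = 0.00696) and TMEM48 (-0.47, adjusted p = 0.00478) and the export adaptor FYTTD1 (-0.48, adjusted p = 0.00313) were lower. In R50 against WT 1 was higher, IPO9 (0.52, adjusted p = 0.0108), and 13 were lower (25% against 13.4% of all tested genes), of which TNPO3, the transportin of SR splicing factors, changed most (-1.08, adjusted p = 0.000796), followed by FYTTD1 (-0.38, adjusted p = 0.0107) and the export helicase DDX19A (-0.32, adjusted p = 0.0187). At the probe read, IPO9 was called in all 3 comparisons, which share the WT arrays. It was lower after the acute drug and higher in the knockout and in R50.

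Promoters are described since most members called with NU6102 went in 1 direction. RefSeq sequences of GRCh38.p14, from 250 bases before each start to 50 after it, were matched by current symbol for 42 of the 51 tested member genes. The letters CCGGAAG, as bound by ETS-family factors, were found on either strand in 17 of the 42 (40.5%), against 16.3% of 13793 genes named on the array. They were in 11 of the 23 matched genes called higher with NU6102 (47.8%) and in 6 of the other 19 (31.6%). GCGCATG, the core of the NRF1 site, was in 6 of the 42 (14.3%) against 6.92% of genes on the array. CCAAT was in 47.6% against 42.3%, and TATAAA in 9.52% against 12.4%. The E2F-type letters TTCCCGC were in 23.8% against 10.7%, and the longer form TTTCCCGC in 2.38% against 2.7%, so that comparison turned on a single letter. All 42 member genes were tested, that is, stood well above background, while the genes named on the array were not limited to tested ones. The shares are therefore not of like sets, and no share over tested genes alone was taken. These matches describe letters in the window and were not tested against binding.

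The promoters of NUP107, the largest called rise in CDK2 KO, NUP50, the largest rise with NU6102 of any member probe, and NXF3, the largest rise in R50, are given from 250 bases before the start to 30 after it, with CCGGAAG and GCGCATG on either strand in capitals. NUP107 held 2 matches to each, those to GCGCATG overlapping on opposite strands. NUP50, at the first of its 2 listed starts, held 1 and again an overlapping pair, and NXF3 neither.
NUP107 (chr12:68686728-68687007, plus strand): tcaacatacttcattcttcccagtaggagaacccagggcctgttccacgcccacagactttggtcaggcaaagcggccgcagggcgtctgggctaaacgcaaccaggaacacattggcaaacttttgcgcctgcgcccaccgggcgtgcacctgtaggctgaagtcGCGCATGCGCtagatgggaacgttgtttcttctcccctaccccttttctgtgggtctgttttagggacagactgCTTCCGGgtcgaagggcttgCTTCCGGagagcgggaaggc
NUP50 (chr22:45163675-45163954, plus strand): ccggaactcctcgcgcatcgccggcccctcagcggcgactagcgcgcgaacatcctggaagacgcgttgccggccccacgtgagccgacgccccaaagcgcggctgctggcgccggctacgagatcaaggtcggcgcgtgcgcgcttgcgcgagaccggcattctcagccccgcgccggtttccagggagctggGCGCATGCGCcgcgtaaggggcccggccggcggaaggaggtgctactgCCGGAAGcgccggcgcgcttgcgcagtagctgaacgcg
NXF3 (chrX:103093114-103093393, minus strand): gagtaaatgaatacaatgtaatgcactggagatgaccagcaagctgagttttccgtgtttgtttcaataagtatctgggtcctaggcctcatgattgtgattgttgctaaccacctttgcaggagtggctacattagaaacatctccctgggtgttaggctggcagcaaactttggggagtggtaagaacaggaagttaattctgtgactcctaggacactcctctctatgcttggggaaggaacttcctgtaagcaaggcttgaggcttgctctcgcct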

How the data were processed

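RNA of 8 HCT-116 samples was labelled with Cy3 and hybridised to an array each. The deposited scanner files, made by the authors with Agilent Feature Extraction 11.5.1.1, give the processed signal intensity of each spot, background-corrected and on a linear scale. The authors' deposited value table holds log2 values of 28719 probes, centred per probe (column medians -0.0212 to 0.0235; correlation with centred scanner values 0.9988 to 0.9996), by steps not given in the sources used here, and served as an alternative alone. No column of the authors' own comparisons was used, and 0 value columns were left unassigned.

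Outlier and control spots were dropped, log2 intensity was taken less the 75th percentile of each array's non-control spots, and spots of a probe were averaged. A probe was tested if well above background on both arrays of a group. limma 3.58.1 in R 4.3.3 (lmFit, eBayes) was fitted on all 8 arrays with 4 groups and no covariate, with two-sided Benjamini-Hochberg adjusted p-values over 28677 probes, called under 0.05. All adjusted p-values in the text are from limma. The spread rests on 2 arrays a group, which limits the precision. Differences between probes of a gene were fitted in the same way. On simulated data 200 probes were changed by 1 on the log2 scale. The fit over 28677 probes recovered 79% for WT+NU6102, 77.5% for CDK2 KO and 72.5% for R50 against WT, with 11, 2 and 14 false calls. Most called member changes were smaller than that, and a far larger share of probes was called in the data. These rates therefore do not carry over to the calls given here.

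Every member gene could be named. Given in depth were, per comparison with WT and for R50 against CDK2 KO, the 5 largest called rises and falls, each called probe with a log2 change of at least 1, and genes with probes called in opposite directions, and of the further transport genes the 3 largest rises and falls against WT. The members, lists and roles were chosen with earlier results of these data known. Of 84 member probes with a RefSeq transcript, 82 matched a current symbol by accession. Alternatives were normexp background correction (offset 50), quantile normalization, no filter or all 8 arrays above background, the deposited log2 values, a trended prior, a replicate block, fits within a slide, leaving out each array, the methods' ANOVA and t-test, a minimum log2 change of 1, the mean over probes and, chosen after seeing the data, the percentile over tested probes alone. Motifs were searched with Python 3.11.15.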

Additional observations from a re-analysis of the deposited data

How the results depend on the processing

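Same-numbered arrays showed no shared deviation: their deviations correlated between -0.028 and 0.0452. These correlations cannot show whether same-numbered samples were handled together. With the replicate number as a block the member probes called were 38 with NU6102, 19 in CDK2 KO, 18 in R50 against WT, 35 in R50 against CDK2 KO and 48 in R50 against WT+NU6102, and 4 passed the F-test. The member median for WT+NU6102 against WT was 0.2028 with normexp, 0.0795 with quantile normalization, 0.1475 with the percentile over tested probes and 0.1988 as a mean over probes. For CDK2 KO it was 0.002349 with normexp, 0.04424 with all 8 arrays above background, 0.01325 from the deposited values and 0.009575 with the percentile over tested probes. For R50 against WT it was -0.1395 with quantile normalization and -0.174 as a mean over probes. For R50 against CDK2 KO it was -0.1976 with normexp, -0.1651 with quantile normalization, -0.2126 from the deposited values, -0.2024 with the percentile over tested probes and -0.1906 as a mean over probes. For R50 against WT+NU6102 it was -0.3804 with normexp, -0.2687 with quantile normalization, -0.414 with all 8 arrays above background, -0.3116 with the percentile over tested probes and -0.3306 as a mean over probes. Without the filter on dim probes 7 member probes were called in CDK2 KO, 2 in R50 against WT, 17 in R50 against CDK2 KO and 0 by the F-test, and 2 further transport genes in R50, where more probes enter the adjustment. The limma F-test gave 57 member probes an unadjusted p under 0.05 there, and 54 without CDK2 KO replicate 2, the other setting with a count of 0. No share over all probes is given beside these unadjusted counts, so they are not read as a result about the members. A trended prior gave 35 member probes and 24 further transport genes in R50 against WT and 46 by the F-test. The F-test count was 32 with normexp, 13 with quantile normalization and 5 by the methods' ANOVA. Within the slide 20 were called in R50 against CDK2 KO. The methods' t-test called 25 member probes in R50 against WT before adjustment and 0 after it. With a minimum log2 change of 1 the counts were 2, 1, 1, 2 and 4 for WT+NU6102, CDK2 KO and R50 against WT and R50 against CDK2 KO and against WT+NU6102. Leaving out 1 array gave 29 to 38 calls with NU6102, 10 to 21 in CDK2 KO, 3 to 15 in R50 against WT, 18 to 32 in R50 against CDK2 KO, 42 to 48 in R50 against WT+NU6102 and 0 to 5 by the F-test. The further transport genes gave 28 to 34, 9 to 14 and 2 to 13. The medians ranged from 0.2066 to 0.2236, 0.002723 to 0.04875, -0.2072 to -0.1445, -0.2302 to -0.188 and -0.4327 to -0.3954. Of the 44 single probe values followed, none reversed in any of these fits, 642 of the refitted values kept their call and 80 lost it. Calls against WT lost without WT replicate 1 were those of THOC2, KPNB1, XPO1 and XPOT in CDK2 KO, NUP37, THOC4, XPO5 and XPO6 in R50, and upstream POM121 with NU6102. Without WT replicate 2 they were NUP133, THOC6, KPNB1 and XPO1 in CDK2 KO, THOC4 and XPO6 in R50, and upstream POM121 with NU6102. Without CDK2 KO replicate 1 NUP133, NUP62CL, THOC6, KPNB1 and XPOT lost theirs in CDK2 KO, and without replicate 2 THOC2, KPNB1 and XPO1. Without R50 replicate 1 it was NUP37 and XPO6 in R50, without R50 replicate 2 THOC4, and without WT+NU6102 replicate 1 upstream POM121 with NU6102. Besides these, NXF3 in CDK2 KO and NUP35 with NU6102 kept their calls without WT replicate 1 alone, inner KPNA4 in R50 without either WT+NU6102 array alone, and the first KPNA4 end probe in no such fit. Where no cause is named the cause was not tested. An array left out leaves its group with 1 sample, assumed to vary like the others. Where that group is outside a comparison, the log2 change cannot move, and only its test can.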
